A study of Mus musculus with 12 samples.

Results

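The collagen genes of 3T3-L1 cells were followed through adipogenic induction and through induction with either of 2 flavonoids added. Members were all protein-coding genes of the deposited count table whose symbol has the form of a collagen chain (Col, a type number, the letter a and a chain number). This gave 44 of the 54532 genes in the table. The cells are a wild-type mouse preadipocyte line with a fibroblast-like form, grown with 10% fetal bovine serum, and all libraries were taken on day 6. Untreated cells formed the first group. The second group received DMI, a cocktail of 1 uM dexamethasone (a glucocorticoid), 0.5 mM IBMX (3-isobutyl-1-methylxanthine, a phosphodiesterase inhibitor) and 10 ug/ml insulin until day 2, then insulin alone for 2 days, then serum medium. The other two groups received DMI with luteolin or DMI with quercetin, plant flavonoids that differ by a hydroxyl group that quercetin carries and luteolin lacks. The labels give no dose and no exposure time for either compound, so whether their doses match is not known. The protocol text is the same on every sample, and only the title and treatment label set untreated cells apart. Each group had 3 libraries. Nothing in the labels says that these came from separate cultures, so the spread behind the p-values may be technical.

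Collagens are triple-helical proteins of the extracellular matrix. Fibrillar collagens (types I, III, V and XI among them) form the cable-like fibrils that give tissue its tensile strength; type IV forms the sheet-like basement membrane that surrounds each mature adipocyte; type VI forms beaded filaments close to the cell and is abundant in adipose tissue. FACIT collagens sit on fibril surfaces, and multiplexins (types XV and XVIII) link basement membranes to the matrix beneath. Preadipocytes are matrix-producing cells, and the turn from a fibrillar to a basement membrane matrix is a known feature of adipogenesis.

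The labelled cell type matched its markers. Library totals ran from 14522182 to 19436796 counts. The summed level of 5 preadipocyte or fibroblast markers (Dlk1, Pdgfra, Pdgfrb, Thy1 and Vim) lay between 9995 and 10351 CPM (counts scaled to library size, with TMM) in untreated cells and between 3680 and 7432 CPM in the induced groups. In untreated cells most of that sum was Dlk1, and the members did not all move one way: Pdgfra was at 577 to 604 CPM in untreated cells, 589 to 689 CPM with DMI and 728 to 821 CPM with quercetin, and Vim reached 2885 CPM with quercetin against 2106 to 2163 CPM untreated. The 6 adipocyte markers (Adipoq, Fabp4, Plin1, Lep, Cidec and Cfd) summed to between 1.55 and 15.1 CPM without induction and to between 544 and 11521 CPM with it. Lists of 4 genes each for macrophages, endothelium and epithelium never summed above 3.06 CPM in any library, with Adgre1 at 0 counts in all 12. The muscle list (Myod1, Des, Acta1 and Myh11) summed to at most 2.92 CPM in untreated and at most 40.5 CPM in induced libraries, with Myod1 at 0 in all 12. The cartilage list (Acan, Sox9, Matn1 and Comp) summed to 98.1 to 106 CPM in untreated, 42.6 to 79.4 CPM in DMI, 72.9 to 108 CPM in luteolin and 89.7 to 98.2 CPM in quercetin libraries, nearly all of it Sox9, with Acan and Matn1 at or near 0. The bone list (Bglap, Ibsp, Runx2 and Sp7) summed to 57.2 to 59.3, 34.2 to 44.9, 40.1 to 42.1 and 43.5 to 56.8 CPM in the same order, nearly all of it Runx2. The part of these levels in the collagen results was not tested. The third library of each induced group stood apart from the other two of its group: Fabp4, a fatty acid carrier of adipocytes, was at 2958, 3896 and 840.3 CPM in the DMI libraries, at 1812, 2076 and 794 CPM with luteolin and at 1197, 1274 and 205 CPM with quercetin. Counts of collagen genes called are therefore given below with and without the third libraries, an alternative chosen after the data were seen. In bulk RNA, fewer cells of a type and less RNA per cell cannot be told apart.

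Collagen transcripts made up a large share of these libraries. In untreated cells 6.66, 6.66 and 6.31% of all counts fell on collagen genes (mean 6.54% ± 0.202, SD, n = 3). With DMI the share was 4.35, 4.50 and 5.80% (4.89% ± 0.798), with luteolin added 4.26, 4.23 and 5.16% (4.55% ± 0.526) and with quercetin added 4.78, 4.36 and 4.31% (4.48% ± 0.26). All 9 induced libraries lay below all 3 untreated ones, and the 3 induced groups overlapped one another. The share of counts on mitochondrial genes moved with the groups too, from 1.85 to 1.91% in untreated to between 2.87 and 4.73% in the 9 induced libraries, with the third DMI and luteolin libraries lowest at 2.87 and 2.91%; its part in the collagen shares was not tested. Col1a2, Col1a1 and Col3a1, the chains of collagens I and III, ranked 1, 2 and 3 by count among all genes in every untreated library. In the DMI libraries Col1a1 ranked 8, 7 and 3, while Col3a1 ranked 3, 3 and 2.

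**Figure D1:**
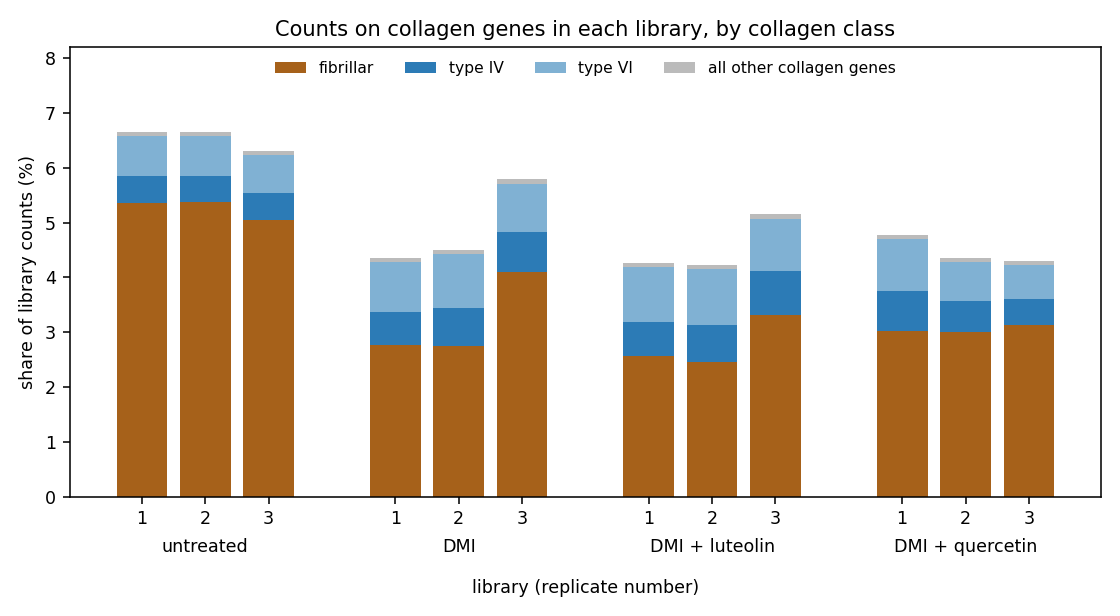
Share of each library's counts that fell on collagen genes (y axis, percent), stacked by collagen class, for the 3 libraries of each group (x axis). The untreated bars reach 6.31 to 6.66%, above all 9 induced bars. The fibrillar part is lower in every induced bar, while the type IV and type VI parts are higher in the DMI bars.

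The make-up of the collagen counts also differed. Fibrillar genes took 80.6, 80.7 and 79.97% of collagen counts in untreated cells and 63.6, 61.0 and 70.7% with DMI. Type IV genes went from 7.33, 7.24 and 7.82% to 13.6, 15.4 and 12.5%, and type VI genes from 11.0, 11.0 and 11.0% to 21.1, 21.9 and 15.2%. None of these 3 shares overlapped between the untreated and the DMI libraries. With luteolin the fibrillar share was 60.1, 58.0 and 64.3%, and with quercetin 63.2, 68.9 and 72.6%, both overlapping the DMI libraries. Shares of one total constrain each other, so a lower fibrillar share alone raises the others; the tests below are per gene.

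The first comparison, DMI against untreated, asks what induction did to collagen expression by day 6. The fibrillar chains Col1a1, Col1a2, Col3a1 and Col5a1, the FACIT genes Col14a1 and Col16a1 and the type IV chain Col4a5 fell. Another type IV chain, Col4a1, rose, as did the type VI chain Col6a3, the multiplexin Col15a1 and the scarce Col7a1. Of the 44 collagen genes 28 passed the low-count filter and were tested, with edgeR's quasi-likelihood test and Benjamini-Hochberg adjustment over all 14855 genes. Of those 28, 11 passed an adjusted p of 0.05, 4 up and 7 down. Across all genes tested 27.1% passed (14.7% up and 12.4% down), so the rises among collagen genes are near the background share and the falls above it; that excess itself was not tested. The median log2 fold change over the 28 was -0.091, against -0.041 over all genes tested, with 13 above 0 and 15 below. Without the third induced libraries 22 of the 28 passed (10 up and 12 down), all 11 among them, and without DMI library 3 alone 17 did. For these and the other alternative fits below, the share of all genes passing is not given. A changed count therefore cannot be read as particular to collagen genes. Leaving out any other DMI or untreated library lowered the count, to 5 without DMI library 1, 4 without DMI library 2, 6 without untreated library 1, 5 without untreated library 2 and 6 without untreated library 3. Col14a1, Col4a5, Col1a1 and Col15a1 passed under every alternative tried.

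**Figure D2:**
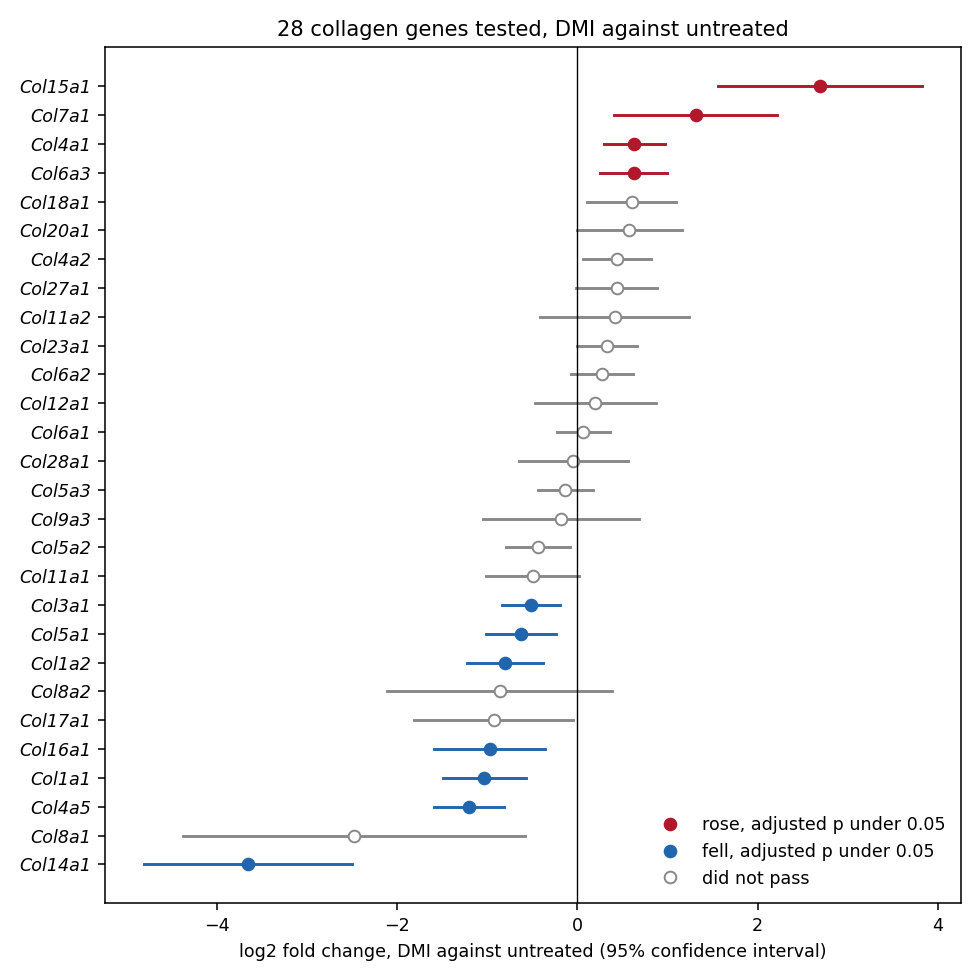
Log2 fold change of each tested collagen gene between DMI and untreated libraries (3 per group), with 95% confidence intervals from edgeR, in order of the change; filled points passed an adjusted p of 0.05. Col15a1 stands highest at 2.69 and Col14a1 lowest at -3.66, and 7 of the 9 fibrillar genes lie below 0.

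Among the fibrillar collagens 4 of 9 tested genes fell and none rose (median -0.50). Col1a1 (chr11:94936224-94953042, GRCm38, plus strand), which encodes the alpha 1 chain of type I collagen, was at 16634, 16241 and 15591 CPM in the untreated libraries and at 6724, 6530.4 and 10454 CPM with DMI. The groups do not overlap, and DMI library 3 lay between the untreated libraries and the other DMI libraries. It fell 2.04-fold (log2 fold change -1.03 with an SE of 0.21, adjusted p = 0.00469). Its partner chain Col1a2 (chr6:4504814-4541544, plus strand) went from 18425, 18709 and 17593 to 8976, 8814 and 13583 CPM, 1.74-fold lower (log2 fold change -0.80, adjusted p = 0.0103). Col3a1 (chr1:45311538-45349706, plus strand), the single chain of type III collagen, went from 15364, 15721 and 14714 to 9908, 10176 and 12067 CPM, 1.42-fold lower (log2 fold change -0.51, adjusted p = 0.0237). Col5a1, a type V chain that nucleates type I fibrils, went from 2424, 2397 and 2429.5 to 1326, 1431 and 1942 CPM (log2 fold change -0.63, adjusted p = 0.0213). Its partner Col5a2 was at 1602, 1649 and 1621 CPM without and at 1043, 1116 and 1445 CPM with DMI; these groups do not overlap either, but the change missed the threshold (log2 fold change -0.44, adjusted p = 0.0658). Col5a3, the remaining type V chain, was at 253, 251 and 235 CPM without and at 216, 258 and 197 CPM with DMI, with overlapping groups (log2 fold change -0.14, adjusted p = 0.512). For Col11a1, a type XI chain, DMI libraries 1 and 2 lay at 175 and 173 CPM and library 3 at 302 CPM, within the untreated range of 294 to 322 CPM (log2 fold change -0.50, adjusted p = 0.144). The scarcer Col27a1 was at 31.0, 29.9 and 26.5 CPM without and at 38.9, 47.0 and 32.2 CPM with DMI (log2 fold change 0.43, adjusted p = 0.142), without overlap. Col11a2 was at 12.6, 12.7 and 7.98 CPM without and at 14.7, 20.4 and 9.30 CPM with DMI, with overlap (log2 fold change 0.41, adjusted p = 0.456).

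Type IV chains did not move together. Col4a1 (chr8:11198423-11312826, minus strand), a core chain of every basement membrane, was at 2609, 2568 and 2675 CPM in untreated cells and at 3661, 4418 and 4102 CPM with DMI, 1.55-fold higher (log2 fold change 0.63 with an SE of 0.16, adjusted p = 0.0115). All DMI libraries lay above all untreated ones, and here library 3 lay between libraries 1 and 2. Its partner Col4a2 (chr8:11312805-11449287, plus strand) went from 1782, 1805 and 1861 to 2174, 2561 and 2649.8 CPM without overlap, and did not pass (log2 fold change 0.44, adjusted p = 0.0828). Both genes lie head to head and overlap by 22 bases; the library kit does not mark strand, so reads there cannot be assigned to one of them. Col4a5, a chain of the alternative type IV networks, went the other way, from 618, 589.7 and 596 to 232, 229 and 325 CPM, 2.30-fold lower (log2 fold change -1.20 with an SE of 0.18, adjusted p = 0.00079). Its 2 groups were far apart relative to the spread within each.

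Of the type VI genes Col6a3 rose and the other 2 did not pass. Col6a3 (chr1:90765923-90843971, minus strand) encodes the longest chain of type VI collagen, from whose end the adipokine endotrophin is cut. It was at 2768, 2756 and 2539 CPM in untreated and at 4287, 4564 and 3593 CPM in DMI libraries, 1.54-fold higher (log2 fold change 0.63 with an SE of 0.17, adjusted p = 0.0188). Again the groups do not overlap, with library 3 the lowest of the DMI group. Col6a1 stayed between 2759.7 and 3061 CPM in these 6 libraries (log2 fold change 0.066, adjusted p = 0.761), and Col6a2 was at 1969, 1981 and 1923 CPM without and at 2364, 2625 and 2109 CPM with DMI (log2 fold change 0.27, adjusted p = 0.223).

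The widest changes were in scarcer genes. Col15a1 (chr4:47208161-47313167, plus strand), a multiplexin of the basement membrane zone, was at 45.6, 41.8 and 25.7 CPM in untreated and at 303, 329.5 and 96.8 CPM in DMI libraries. It rose 6.45-fold (log2 fold change 2.69 with an SE of 0.52, adjusted p = 0.00342). Even the lowest DMI library, the third, lay above every untreated one. Col18a1, the other multiplexin and the source of endostatin, was at 109, 102 and 96.6 CPM without and at 143, 178 and 146 CPM with DMI, without overlap but short of the threshold (log2 fold change 0.60, adjusted p = 0.0677). Col7a1, which builds the anchoring fibrils of skin, is scarce here, at 2.36, 2.68 and 1.81 CPM without and at 6.17, 8.29 and 2.65 CPM with DMI; it passed (log2 fold change 1.31 with an SE of 0.42, adjusted p = 0.0351) although DMI library 3 lay inside the untreated range.

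Col14a1 (chr15:55307750-55520803, plus strand), a FACIT collagen that binds the surface of type I fibrils, was the collagen gene with the lowest fold change. Its counts were 138, 174 and 141 in the untreated libraries and 12, 3 and 19 with DMI, or 8.58, 10.4 and 8.52 CPM against 0.755, 0.206 and 1.17 CPM. It fell 12.6-fold (log2 fold change -3.66 with an SE of 0.53, adjusted p = 0.000714), a ratio with few counts behind its lower end. Col16a1, another FACIT, fell from 308, 313 and 314 to 113, 128 and 236 CPM (log2 fold change -0.97 with an SE of 0.28, adjusted p = 0.0243). The untreated libraries of Col16a1 lay close together, and DMI library 3 was well above the other two. Col12a1, which like Col14a1 coats fibrils, was at 157, 167 and 178 CPM without and at 148, 128 and 302 CPM with DMI: libraries 1 and 2 lay below the untreated range and library 3 far above it. Its log2 fold change was 0.20 with all libraries and -0.24 without the third libraries, and it passed in neither case. Col20a1, also a FACIT, was at 12.4, 10.4 and 7.19 CPM without and at 19.1, 15.8 and 9.85 CPM with DMI (log2 fold change 0.58, adjusted p = 0.133). The transmembrane collagen Col23a1 was at 33.3, 33.2 and 35.5 CPM without and at 36.6, 38.0 and 53.4 CPM with DMI, with library 3 the farthest from the untreated values (log2 fold change 0.33, adjusted p = 0.136).

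Col8a1, a short-chain collagen of vessel walls and of migrating fibroblasts, showed how much the third library weighed. It was at 85.8, 82.3 and 116 CPM in untreated cells and at 4.91, 2.33 and 43.8 CPM with DMI. No library overlapped, yet it did not pass with all libraries (log2 fold change -2.47, adjusted p = 0.053, 95% interval -4.37 to -0.58). Without the third libraries its log2 fold change was -4.65 and passed.

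**Figure D3:**
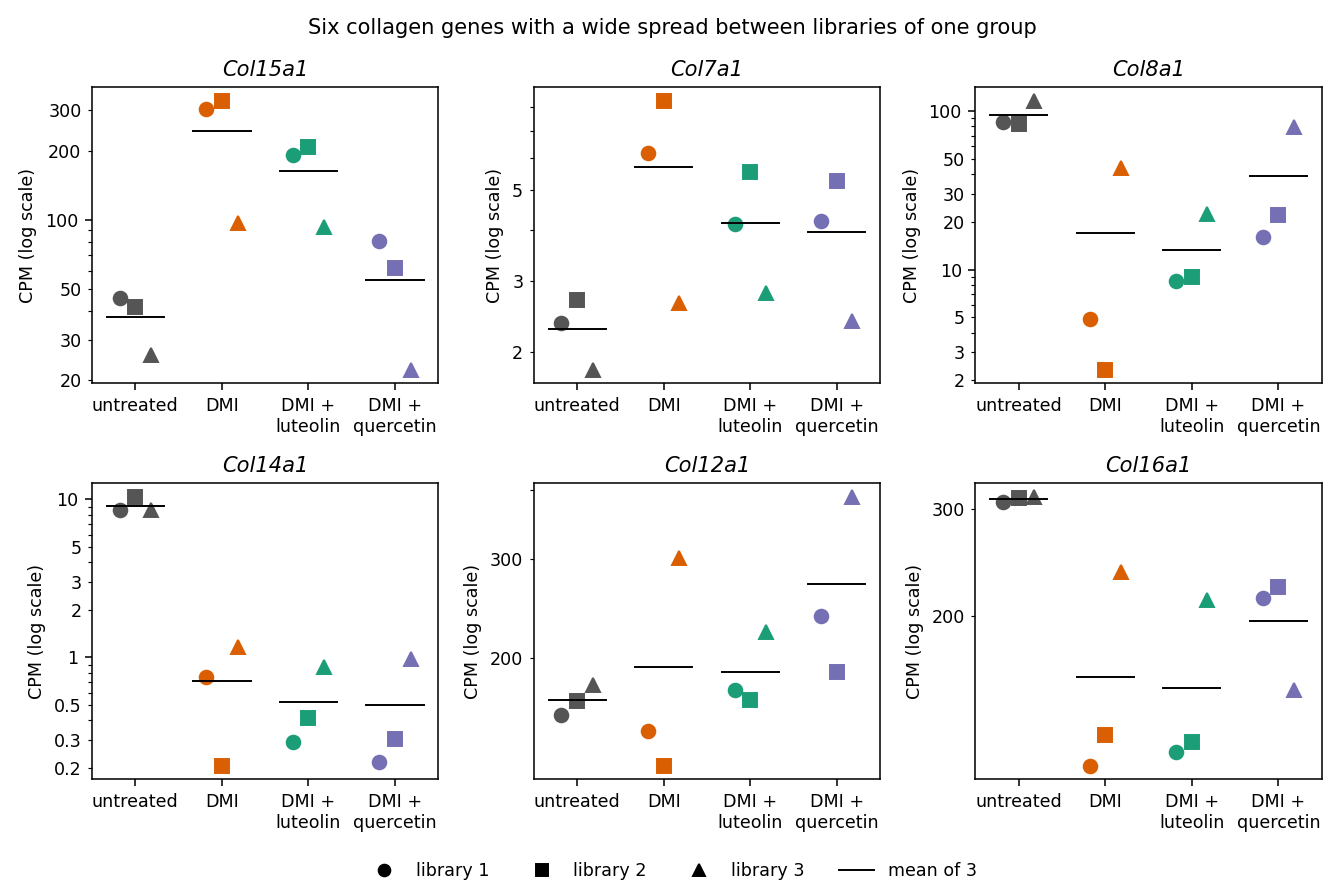
CPM on a log scale of 6 collagen genes in each of the 12 libraries, with marker shapes for libraries 1, 2 and 3 and a line at the mean of 3. In Col15a1 and Col8a1 the third DMI library (triangle) lies between the other DMI libraries and the untreated ones.

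Of the remaining tested genes Col28a1, Col9a3, Col17a1 and Col8a2 had at most 3.66 CPM in any library and none passed with DMI. The 16 genes that were not tested had group means below 1 CPM: Col2a1 and Col24a1 (fibrillar), Col4a3, Col4a4 and Col4a6 (type IV), Col6a4, Col6a5 and Col6a6 (type VI), Col10a1 (short-chain), Col9a1, Col9a2, Col19a1 and Col22a1 (FACIT), Col13a1 and Col25a1 (transmembrane) and Col26a1. Col2a1, the cartilage collagen, had 8 counts in all 12 libraries together, and Col13a1 had 1.

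Promoter windows of 5 of these genes are printed below, 2 that fell (Col3a1 and Col5a1) and 3 that rose (Col6a3, Col15a1 and Col7a1), to show the sequence next to which the changes were measured. Each holds the 250 bases before the RefSeq start (GRCm38.p6), 5′ to 3′ on the gene's strand. They are all the genes called with DMI that have a RefSeq window in which no annotated exon lies. Capitals mark the TATA box letters TATAAA, the CCAAT box letters CCAAT, the GC box letters GGGCGG, the SMAD box letters CAGACA and the PPAR-RXR direct repeat, each searched on both strands.
Col3a1, chr1:45311288-45311537, plus strand: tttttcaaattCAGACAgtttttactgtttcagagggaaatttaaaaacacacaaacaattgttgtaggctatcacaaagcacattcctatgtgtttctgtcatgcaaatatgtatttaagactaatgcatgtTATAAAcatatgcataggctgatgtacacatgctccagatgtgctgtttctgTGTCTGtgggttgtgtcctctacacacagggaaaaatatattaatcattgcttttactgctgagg
Col5a1, chr2:27886175-27886424, plus strand: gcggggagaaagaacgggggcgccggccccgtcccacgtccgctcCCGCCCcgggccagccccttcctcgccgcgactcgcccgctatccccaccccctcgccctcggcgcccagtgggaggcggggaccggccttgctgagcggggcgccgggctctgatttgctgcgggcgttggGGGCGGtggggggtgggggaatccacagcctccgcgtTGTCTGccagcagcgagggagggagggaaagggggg
Col6a3, chr1:90843972-90844221, minus strand: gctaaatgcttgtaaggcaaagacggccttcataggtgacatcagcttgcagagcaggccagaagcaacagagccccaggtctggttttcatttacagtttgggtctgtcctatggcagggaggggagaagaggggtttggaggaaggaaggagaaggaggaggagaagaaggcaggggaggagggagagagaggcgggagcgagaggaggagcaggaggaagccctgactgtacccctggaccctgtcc
Col15a1, chr4:47207762-47208011, plus strand: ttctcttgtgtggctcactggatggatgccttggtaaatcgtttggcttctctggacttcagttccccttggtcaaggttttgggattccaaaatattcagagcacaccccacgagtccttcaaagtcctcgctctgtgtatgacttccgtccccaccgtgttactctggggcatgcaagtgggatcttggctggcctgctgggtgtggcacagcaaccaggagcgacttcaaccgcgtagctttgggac
Col7a1, chr9:108953336-108953585, plus strand: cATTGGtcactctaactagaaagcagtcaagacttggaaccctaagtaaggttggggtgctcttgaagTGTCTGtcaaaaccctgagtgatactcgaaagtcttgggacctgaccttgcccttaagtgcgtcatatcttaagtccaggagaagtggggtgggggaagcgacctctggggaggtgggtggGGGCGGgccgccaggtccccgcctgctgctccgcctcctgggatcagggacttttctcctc

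The Col3a1 window held 1 TATAAA and 2 SMAD box matches at a GC content of 35.2%. That of Col5a1 held 2 GC boxes and 1 SMAD box match at 76.4% GC. That of Col7a1, which rose, held 1 CCAAT box, 1 SMAD box and 1 GC box match at 56.4% GC. Neither the Col6a3 nor the Col15a1 window held any of the 5 motifs, which says only that these letters are not in these windows. RefSeq windows were matched for 35 of the 44 collagen genes. These 35 genes had 38 windows, of which 5 held TATAAA, 13 CCAAT, 22 GGGCGG, 9 CAGACA and 0 the direct repeat. The shares of all 32851 RefSeq promoter windows of that length were 12.4%, 33.8%, 32.7%, 17.1% and 0.0335%. Median GC content was 59% over the collagen windows and 52.4% over all. A match is a description of letters, not a bound site.

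Levels of different genes were compared per length, with the FPKM values that the authors deposited, which scale fragments to gene length and library size. On that scale the ratio between the 2 chains of type I collagen differed between some of the groups, although no ratio test passed the threshold. The ratio of Col1a1 to Col1a2, 2 chains that assemble together in type I collagen, was 1.71, 1.64 and 1.68 in untreated libraries and 1.42, 1.403 and 1.46 with DMI. With luteolin added it was 1.19, 1.17 and 1.26, and with quercetin 1.26, 1.15 and 1.30. Untreated, DMI and either compound group did not overlap, while the 2 compound groups did. The exact two-sided permutation test gave p = 0.1 for each of the non-overlapping pairs, the smallest that 3 against 3 libraries allow, and 0.192 after adjustment over 48 ratio tests. Within a group the ratio had an SD of at most 0.0794. Its level depends on the length used, since the deposited length of Col1a2 is 12426 bases and its longest coding transcript 5348 bases. Per longest coding transcript the group means were 0.799, 0.679, 0.575 and 0.590, in place of 1.68, 1.43, 1.21 and 1.24.

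**Figure D4:**
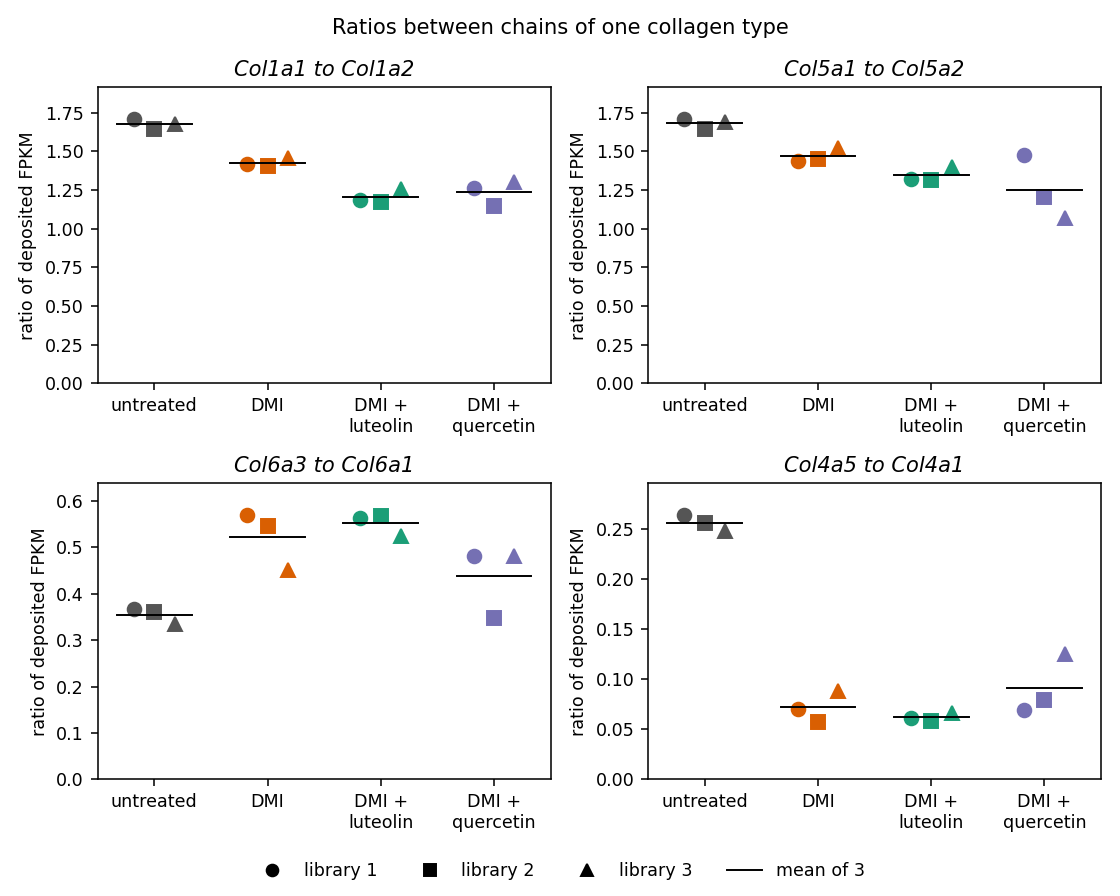
Ratios of deposited FPKM between 4 pairs of collagen chains (y axes) in the 3 libraries of each group, with a line at the mean. The Col1a1 to Col1a2 ratio steps from a mean of 1.68 in untreated to 1.43 in DMI and to 1.21 and 1.24 in the compound groups.

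The other chain ratios were chosen with values in view and are given as descriptions. Of all 8 ratios, 7 did not overlap between DMI and untreated libraries, 2 between luteolin and DMI and 1 between quercetin and DMI. Some of the 8 share a gene, and ratios of other gene pairs were not counted. The counts therefore have no background and cannot be read as particular to collagen genes. The ratio of Col11a1 to Col5a1 overlapped in every comparison. Col5a1 to Col5a2 averaged 1.68 in untreated, 1.47 with DMI, 1.35 with luteolin and 1.25 with quercetin. Its luteolin and DMI libraries do not overlap, while its quercetin libraries ran from 1.07 to 1.48 and overlapped both. Col6a3 to Col6a1 averaged 0.354, 0.522, 0.552 and 0.437. Col4a5 to Col4a1 was 0.263, 0.255 and 0.247 in untreated and 0.0703, 0.0575 and 0.0881 in DMI libraries.

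Genes that make, organise, bind and degrade collagen were described as lists. Of 19 tested genes of collagen modification and folding 6 fell and 1 rose with DMI (median log2 fold change -0.36, against -0.041 over all genes). The collagen chaperone Serpinh1 fell 1.95-fold (-0.96, adjusted p = 0.00555) and the peptidyl-prolyl isomerase Fkbp10 1.76-fold (-0.81, adjusted p = 0.00978). P4hb, a subunit of prolyl 4-hydroxylase, and Crtap, of the prolyl 3-hydroxylase complex, did not pass, at -0.24 and -0.36. Of 11 genes of procollagen processing and cross-linking 6 fell and 0 rose (median -0.68). They include the cross-linking oxidases Lox (-0.70, adjusted p = 0.0182) and Loxl1 (-0.68, adjusted p = 0.0485) and the C-proteinase Bmp1 (-0.59, adjusted p = 0.0164), while Pcolce, which enhances that proteinase, was at -0.59 and did not pass. Of 12 fibril organisers 4 fell and 2 rose (median -0.33). Fibronectin, Fn1, on which collagen fibrils are laid down, fell 3.67-fold (-1.88, adjusted p = 0.00608), the proteoglycan Bgn 2.16-fold (-1.11, adjusted p = 0.0176), and the collagen-binding Sparc 1.47-fold (-0.55, adjusted p = 0.022). Thbs2 was at -0.70 and did not pass.

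Of 8 collagen receptors and uptake genes 4 fell and 1 rose (median -0.46). The integrin beta 1 chain Itgb1 (-0.66, adjusted p = 0.04), the endocytic receptor Mrc2 (-1.06, adjusted p = 0.00871) and the receptor tyrosine kinase Ddr2 (-0.92, adjusted p = 0.0254) fell, and Ddr1 was at 0.078 without passing. Of 6 collagen-degrading enzymes 4 fell and 1 rose (median -0.71). The gelatinase Mmp2 fell 2.22-fold (-1.15, adjusted p = 0.00678). Its activator Mmp14 (-0.60, adjusted p = 0.0403), the lysosomal protease Ctsk (-0.81, adjusted p = 0.0335) and the gelatinase Mmp9 (-1.16, adjusted p = 0.0352) fell too. Both the synthesis lists and the degradation list held more falls than rises. These are counts beside a background of 12.4% down and 14.7% up, with no test of the lists. Over the same libraries the preadipocyte marker Dlk1 went from 6574, 6904 and 6848 CPM to 1739, 1562 and 3120.4 CPM, while Pdgfra of the same marker list was at 589, 604 and 577 CPM and at 628, 589 and 689 CPM, and their part in the list counts was not tested.

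The second comparison, DMI with luteolin against DMI, asks what luteolin added. No collagen gene passed with edgeR, beside 0.0202% of all genes tested. An unadjusted p under 0.05 was reached by 0 of 28, beside 904 of all 14855 genes tested. DESeq2 and limma-voom called 0. Most values lay slightly below 0, 25 of 28 (median -0.20, against -0.016 over all genes), including all 9 fibrillar genes (median -0.26). Col1a1 was at 5358, 5052 and 7351 CPM against the DMI values above, with a log2 fold change of -0.42 (95% interval -0.88 to 0.042; adjusted p = 0.85). Col3a1 was at 8327, 8234 and 10229 CPM (-0.26, -0.58 to 0.057). The luteolin and DMI libraries overlap for both genes, with the third library the highest of each group. Col14a1 was at 0.291, 0.413 and 0.865 CPM (-0.48, -1.84 to 0.88), a difference of few counts.

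The largest differences among collagen genes of at least 5 CPM were in Col15a1 (-0.57, -1.64 to 0.49), Col11a2 (-0.56, -1.39 to 0.27), Col7a1 (-0.45, -1.32 to 0.42) and Col11a1 (-0.44, -0.97 to 0.076). All 4 intervals include 0. Chains of types IV and VI lay near 0, with Col4a1 at 0.037, Col6a3 at 0.074 and Col6a1 at -0.0079. Without the third induced libraries 6 genes passed. Col1a1 (-0.32, adjusted p = 0.0314), Col11a1 (-0.36), Col5a3 (-0.37), Col15a1 (-0.64) and Col11a2 (-0.72) were lower, and Col8a1 was higher (1.27). That fit leaves 2 libraries in each induced group. Same-numbered luteolin and DMI libraries deviated together. Col1a1, Col11a1 and Col15a1 were lower with luteolin in each of the 3 numbered pairs. Other collagen genes were too, among them Col1a2, Col3a1, Col5a1, Col5a2, Col5a3 and Col4a5. How many of all genes were so was not counted. With the number as a block over all 12 libraries no collagen gene passed (Col1a1 adjusted p = 0.49). The block within the 6 luteolin and DMI libraries alone was an alternative added after the data were seen. With it 3 collagen genes passed: Col1a1 (-0.40, adjusted p = 0.0303), Col11a1 (-0.43, adjusted p = 0.00757) and Col15a1 (-0.47, adjusted p = 0.0351).

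The third comparison, DMI with quercetin against DMI, asks the same of quercetin. With edgeR 0 collagen genes passed, beside 1.01% of all genes tested. An unadjusted p under 0.05 was reached by 5 of 28 (Col15a1, Col5a3, Col6a3, Col23a1 and Col8a2, all lower). Of all 14855 genes tested 3159 reached it, so the collagen count is not above the background share. DESeq2 called 2 and limma-voom 0. The median log2 fold change was -0.19, against 0.016 over all genes, with 20 of 28 below 0, among them 7 of 9 fibrillar and all 3 type VI genes. Col15a1 was at 80.4, 61.8 and 22.2 CPM with quercetin and at 303, 329.5 and 96.8 CPM with DMI alone. Every quercetin library lay below every DMI library, the nearest being quercetin library 1 and DMI library 3. The estimate was 4.43-fold lower (log2 fold change -2.15, SE 0.51, 95% interval -3.26 to -1.04) with an adjusted p of 0.0598, short of the threshold. The gene kept this direction in all 23 alternatives and passed in 8 of them, among them DESeq2 (-2.17, adjusted p = 0.00909) and the fit without the third libraries (-2.13, adjusted p = 1.5e-06). In the other 15 it did not pass, among them limma-voom (adjusted p = 0.0948), the fit on these 6 libraries alone (0.233) and the fit without DMI library 2 (0.257, the highest). In the authors' deposited table it was the only collagen gene past an adjusted p of 0.05 for this comparison, beside 365 of all genes. How many genes have an adjusted p there was not counted.

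Of the other collagen genes none passed either. Col1a1 was at 6527, 6196 and 8048 CPM (-0.19, 95% interval -0.65 to 0.27) and Col3a1 at 9326, 9994 and 9233 CPM (-0.17, -0.49 to 0.15), both overlapping DMI. Without DMI library 3 the value of Col1a1 was 0.065, so its sign rests on that library. Col14a1 was at 0.218, 0.303 and 0.982 CPM (-0.55, -1.91 to 0.80). Col8a1 was at 15.99, 22.2 and 79.2 CPM, spread widely and overlapping DMI (1.19, -0.65 to 3.04). Col7a1 (-0.52, -1.39 to 0.35) and Col12a1 (0.50, -0.18 to 1.17) had intervals that include 0. Col6a3 was at 3849.7, 2468 and 2823 CPM (-0.45, -0.82 to -0.073), with the first quercetin library inside the DMI range and the other two below it.

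Leaving out libraries changed this count. Without the third induced libraries 7 genes passed: Col8a1 (2.41), Col16a1 (0.89), Col12a1 (0.66) and Col5a2 (0.25) were higher, and Col15a1, Col6a3 (-0.46) and Col5a3 (-0.37) were lower. Leaving out DMI library 3 alone gave 4 calls, quercetin library 1 gave 2 and luteolin library 3 gave 1. Of the companion lists 1 gene passed in this comparison and 0 in the other two between induced groups. It was the small leucine-rich proteoglycan Prelp, named after its value was seen, which fell 2.18-fold (log2 fold change -1.12, adjusted p = 0.0443).

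Luteolin and quercetin were then compared with each other, both with DMI. No collagen gene passed with edgeR, beside 0% of all genes tested. An unadjusted p under 0.05 was reached by 3 of 28 (Col15a1, Col6a3 and Col28a1), beside 1327 of all 14855 genes tested. DESeq2 and limma-voom called 0. Col15a1 was higher with luteolin, at 191, 207 and 92.7 CPM, than with quercetin, at 80.4, 61.8 and 22.2 CPM, by 1.57 on the log2 scale (95% interval 0.49 to 2.66; adjusted p = 0.541). These libraries do not overlap. Col6a3, at 4406, 4599.8 and 4095 CPM with luteolin, did not overlap its quercetin libraries either (0.52, 95% interval 0.15 to 0.89; adjusted p = 0.541). Col8a1 differed by -1.57 (-3.44 to 0.30) and Col12a1 by -0.53 (-1.20 to 0.14). For Col1a1 the difference was -0.23 (-0.68 to 0.23), for Col3a1 -0.092 (-0.41 to 0.23) and for Col14a1 0.077 (-1.33 to 1.49). A p that misses the threshold does not show that the compounds act alike: for Col1a1 the interval still reaches -0.68. Without the third libraries 10 genes passed, Col15a1 (1.48) and Col6a3 (0.51) higher with luteolin and 8 lower, among them Col8a1 (-1.14), Col16a1 (-0.84) and Col1a1 (-0.29).

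**Figure D5:**
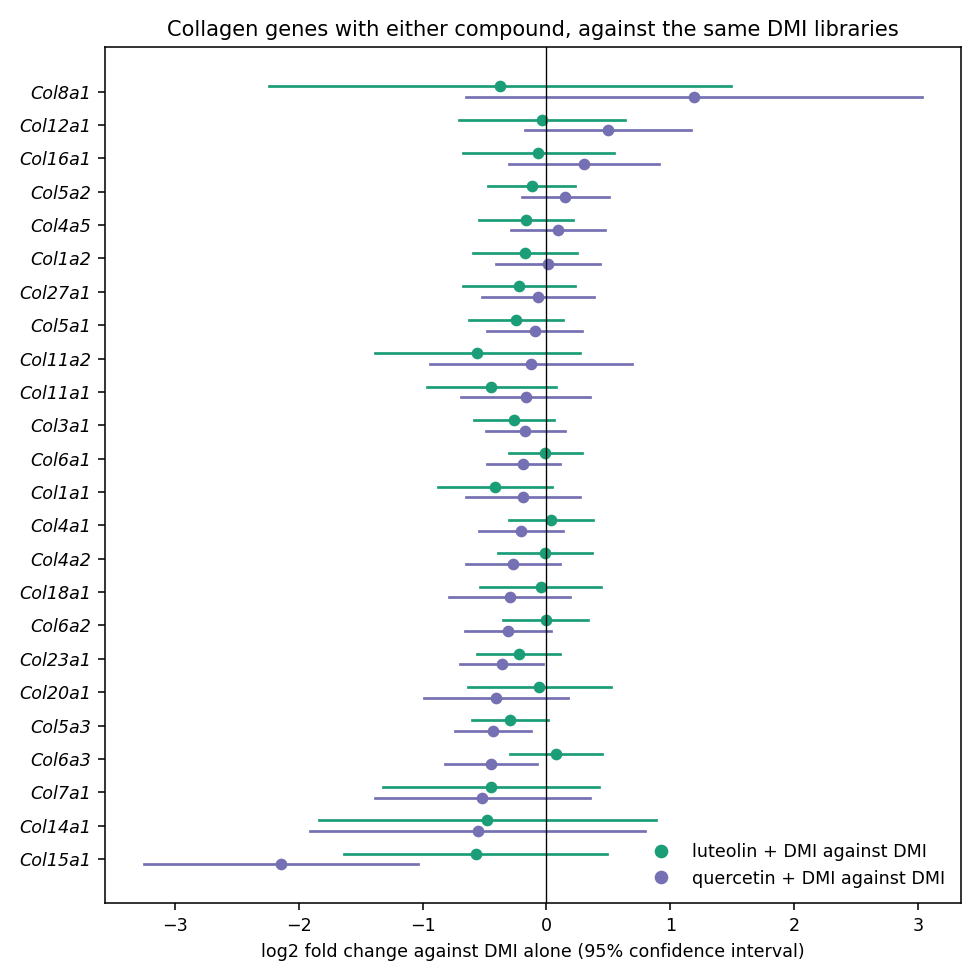
Log2 fold changes (x axis) of the named collagen genes with luteolin or quercetin added to DMI, each against the same 3 DMI libraries, with 95% confidence intervals from edgeR. Most intervals include 0, while that of Col15a1 with quercetin runs from -3.26 to -1.04.

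Last, each compound group was compared with untreated cells. These comparisons share their untreated libraries with the first one, so their values stand side by side and do not support each other. With luteolin 15 of 28 collagen genes passed, 3 up and 12 down, beside 19.3% of all genes tested (10.5% up and 8.74% down), with a median of -0.29 against -0.029 over all genes. With quercetin 8 passed, 0 up and 8 down, beside 9.45% (4.79% up and 4.66% down), with a median of -0.20 against 0.017. The fibrillar genes account for 7 of the falls with luteolin and 5 with quercetin. Col1a1 fell 2.73-fold with luteolin (log2 fold change -1.45 with an SE of 0.22, adjusted p = 0.00102) and 2.33-fold with quercetin (log2 fold change -1.22 with an SE of 0.21, adjusted p = 0.00484). Col3a1 fell 1.71-fold (log2 fold change -0.77, adjusted p = 0.00465) and 1.60-fold (log2 fold change -0.68, adjusted p = 0.0147).

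Col14a1, scarce in every induced library, fell 17.6-fold with luteolin (log2 fold change -4.13 with an SE of 0.55, adjusted p = 0.0006) and 18.5-fold with quercetin (log2 fold change -4.21 with an SE of 0.55, adjusted p = 0.000904). Col4a5 was at 206, 215 and 279 CPM with luteolin (log2 fold change -1.37, adjusted p = 0.000536) and at 262, 243 and 331 CPM with quercetin (log2 fold change -1.11, adjusted p = 0.00294), both below the untreated range. Col8a1 and its partner Col8a2 both fell with luteolin, 7.20-fold (adjusted p = 0.0413) and 5.07-fold (adjusted p = 0.0275). For Col8a2 this rests on 21, 7 and 14 counts in the untreated libraries and 3, 3 and 2 with luteolin. Col8a1 did not pass in 6 of 23 alternatives and Col8a2 in 5 of the 20 that tested it. With quercetin Col8a2 fell 5.56-fold (adjusted p = 0.0361), from at most 1.31 CPM, and Col8a1 did not pass (log2 fold change -1.28, adjusted p = 0.369). The 3 genes that rose with luteolin were Col15a1 (log2 fold change 2.12 with an SE of 0.51, adjusted p = 0.0137), Col6a3 (log2 fold change 0.70 with an SE of 0.17, adjusted p = 0.0147) and Col4a1 (log2 fold change 0.67 with an SE of 0.16, adjusted p = 0.012). With quercetin these were at 0.54 (adjusted p = 0.537), 0.18 (adjusted p = 0.552) and 0.43 (adjusted p = 0.108), and none passed.

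Single libraries weighed on these counts as well. With luteolin 7 or 8 genes passed when any one untreated library or luteolin library 1 or 2 was left out. Without the third induced libraries 21 passed, 9 up and 12 down, the 15 among them and Col4a2, Col6a2, Col18a1, Col27a1, Col20a1 and Col7a1 in addition, all 6 higher. With quercetin 3 passed without untreated library 1 or 3, 4 without untreated library 2 or quercetin library 2, and 20 without the third induced libraries (8 up and 12 down). Col14a1, Col1a1 and Col4a5 passed in both comparisons under every alternative tried. Every companion list held more falls than rises in both comparisons. Of 19 modification and folding genes 6 fell and 0 rose with luteolin, and 4 fell and 1 rose with quercetin. Of 11 processing and cross-linking genes 3 and 2 fell, and 0 rose. Of 12 fibril organisers 6 fell and 1 rose, then 3 fell and 0 rose. Of 8 receptors and uptake genes 2 fell and 1 rose with either compound. Of 6 degrading enzymes 3 and 2 fell, and 1 rose with either. Among all genes tested 8.74% fell and 10.5% rose with luteolin, and 4.66% and 4.79% with quercetin. No list was tested as a set. Serpinh1 fell 2.02-fold with luteolin (-1.02, adjusted p = 0.00621) and 2.01-fold with quercetin (-1.005, adjusted p = 0.0113). Fn1 fell 3.62-fold (-1.86, adjusted p = 0.00891) and 2.88-fold (-1.53, adjusted p = 0.0349). Lox fell with luteolin (-0.72, adjusted p = 0.0203) and was at -0.31 with quercetin, without passing.

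Beside these results, the adipocyte markers moved with the groups. They summed to between 2559 and 11521 CPM with DMI, between 2008 and 5704 CPM with luteolin and between 544 and 3037 CPM with quercetin. Within each induced group the library with the lowest sum was the third, which also held the highest Col8a1. The part of these differences in the collagen values was not tested.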

How the data were processed

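Gene counts of 12 RNA libraries from 3T3-L1 cells were used, 3 in each of 4 groups read from the sample titles. The authors deposited raw counts per gene, and the submitters' processing notes name featureCounts 1.5.0-p3 and CASAVA 1.8.2; for the aligner and the strand setting nothing is given in the sources used here. That deposited table holds FPKM values, used only for levels and ratios between genes, and log2 fold changes and adjusted p-values of the authors' own comparisons, with the tool not given. The notes name mm9, but 98.3% of gene positions, and 100% of those of collagen genes, equal GENCODE M21 on GRCm38, so coordinates are GRCm38.

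Counts were tested in R 4.3.3 with edgeR 4.0.16: filterByExpr kept 14855 genes, TMM scaling was used, and 1 term per group was fitted over all 12 libraries by the quasi-likelihood method. P-values were adjusted by Benjamini-Hochberg over all genes in each of 6 comparisons, and 0.05 was the threshold. Of the 54532 genes 25496 had 0 counts throughout. All replicate pairs differed by more than sampling noise, the closest with a chi-square of 2.68 per gene. Alternatives were RLE scaling, library totals only, other low-count filters, DESeq2 1.42.0, limma-voom (limma 3.58.1), a table of protein-coding genes, the replicate block, a fit on just the 6 libraries compared, and leaving out each library. The fit was tested on simulated data.

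The collagen genes, classes, companion lists and marker lists were chosen with earlier results of these data known. Genes named with values are Col1a1, Col3a1, Col14a1 and every collagen gene with a mean of at least 5 CPM in a group; full statistics are given for up to 4 largest rises and falls called. Between induced groups up to 4 collagen genes with the largest differences are added, and of companion lists up to 4 genes most abundant per length.

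Same-numbered libraries deviated together between luteolin and DMI (r = 0.261, 0.337 and 0.59), each over the limit of 0.1. No other comparison had all its values over 0.1. The number was fitted as a block only in alternatives, and the reported fit has none. Luteolin library 2 followed DMI library 1 more closely than DMI library 2. The third library stood apart in both groups, and its part in these values was not tested. The labels do not say what a number marks.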

Additional observations from a re-analysis of the deposited data

How the results depend on the processing

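The number of collagen genes past the threshold changed with the libraries used. The share of all genes passing in each alternative fit is not given here, so these changes cannot be set against a background. Leaving out 1 library at a time gave 4 to 17 genes for DMI against untreated, 0 to 0 for luteolin against DMI, 0 to 4 for quercetin against DMI, 0 to 0 between the compounds, 7 to 18 for luteolin against untreated and 3 to 11 for quercetin against untreated. A fit without the third induced libraries, an alternative chosen after seeing the data, gave 22 for DMI, 21 for luteolin and 20 for quercetin against untreated, 6 and 7 for luteolin and quercetin against DMI, and 10 between the compounds. Without a low-count filter 2 genes passed for quercetin against DMI, 2 for luteolin against quercetin and 13 for quercetin against untreated. DESeq2 called 2 for quercetin against DMI. With RLE scaling or library totals only, the counts stayed within 1.5 times of those reported.

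With the replicate block, the counts were 15 for DMI, 17 for luteolin and 10 for quercetin against untreated. They were 0 for luteolin against DMI, where same-numbered libraries deviated together. For quercetin against DMI and for luteolin against quercetin 1 gene passed, Col15a1 in both. The block within the 6 libraries of a pair, also chosen after seeing the data, gave 3 for luteolin and 2 for quercetin against DMI, and 2 for luteolin against quercetin.

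Among the single values, 4 changed sign, in 7 fits in all; none of the 4 was past the threshold with all libraries. Col12a1 for DMI against untreated was -0.24 without the third libraries and -0.28 without DMI library 3. Without DMI library 3, Col14a1 for luteolin against DMI was 0.073 and Col1a1 for quercetin against DMI was 0.065. Col14a1 between the compounds was -0.46 without luteolin library 3, -0.28 without quercetin library 1 and -0.19 without quercetin library 2. Over all single libraries left out, these values ran from -0.28 to 0.43 for Col12a1, from -1.02 to 0.073 for Col14a1 with luteolin, from -0.31 to 0.065 for Col1a1 with quercetin, and from -0.46 to 0.95 for Col14a1 between the compounds. The cause of these changes was not tested. The ratio of Col1a1 to Col1a2 changed level with the length used, an alternative chosen after seeing the data, and kept its order of groups. Depth limits Col14a1 and Col8a2 in the induced groups, where they had 3 to 19 and 2 to 15 counts per library.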

Other observations

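Collagen genes lie near each other in several places of the genome (GRCm38); differences between neighbours were not tested. Col3a1 and Col5a2 lie 24.6 kb apart on chromosome 1 on opposite strands; with DMI their log2 fold changes were close, -0.51 for Col3a1 (adjusted p = 0.0237) and -0.44 for Col5a2 (adjusted p = 0.0658, short of the threshold). Col6a2 and Col6a1 lie 85.2 kb apart on chromosome 10, at 0.27 and 0.066, neither past the threshold. Col4a6 and Col4a5 lie head to head on the X chromosome, 1308 bases apart; Col4a5 had 229 to 618 CPM in untreated and DMI libraries, while Col4a6 had 51 counts in all 12 libraries together.

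In the authors' deposited table, genes past an adjusted p of 0.05 were counted. For DMI against untreated 9 collagen genes were up and 8 down, beside 5192 of all genes. For luteolin against untreated 7 were up and 12 down, beside 5686, and for quercetin against untreated 1 up and 10 down, beside 1836. Luteolin against DMI had 0 beside 61, and quercetin against DMI 1 down beside 365. Some collagen genes have no adjusted p there, and the genes that have one were not counted. These counts are therefore not shares and cannot be set against a background.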
